A study of Mus musculus with 12 samples.

Results

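The comparison of resting cells set 3 libraries of untreated Pim1-/- bone marrow-derived macrophages (BMDMs) against 3 libraries of untreated WT BMDMs. All genes with at least 1 FPKM (fragments per kilobase of transcript scaled to the mapped fragments of the library, a level per length) in at least 3 of these 6 libraries were members, which gave 10158 of the 23997 genes listed. The study held 12 libraries in all, and the other 6 were from both genotypes given 100 ng/ml LPS, a bacterial cell wall component, over 4 h. The mice were C57BL/6 males of 8 to 10 weeks, and marrow cells of both genotypes were grown for 7 days in recombinant human M-CSF at 10 ng/ml, the growth factor that turns marrow progenitors into macrophages. Pim1-/- mice carried a large CRISPR/Cas9 deletion in Pim1 in every cell, so the progenitors lacked the gene as well as the macrophages grown from them. The sources used here do not say whether the 3 libraries of a group came from separate mice or cultures, so p-values measure the spread between these libraries, which may be technical.

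Pim1 is a serine/threonine kinase with a short half-life, made after STAT activation by cytokines and growth factors. It is known for driving cell cycle entry and survival, with CDK inhibitors, CDC25 phosphatases and BAD among its substrates, and Pim2 and Pim3 are close relatives. In BMDMs, M-CSF acts through its receptor Csf1r to sustain both survival and division. Mature macrophages are known for surface receptors, complement and lipid-handling proteins.

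FPKM summed to between 452511 and 489710 per library. The depth is not recorded. By an estimate from the steps between low values, 1 FPKM of a transcript of 2000 bases rested on about 68 to 83 fragments in each library. Pearson's r across the genes tested on log2(FPKM + 1) was 0.996 to 0.998 within a genotype and 0.928 to 0.942 between them. Genes are not independent replicates. The median coefficient of variation among genes with a group mean of at least 10 FPKM was 4.67% in Pim1-/- and 3.42% in WT cells. All 16 macrophage markers passed the filter in cells labelled as macrophages, among them Cd68 at 956 FPKM in Pim1-/- and 1161 in WT cells. Of 10 monocyte markers 5 passed the filter, the highest at 4282 against 2342 FPKM. Their summed level was 3998 to 4667 FPKM in Pim1-/- and 2141 to 2495 in WT libraries. Of the 5, 2 were called lower and none higher, where 3.51% and 4.59% of all genes were. Apart from these, most markers that define other blood lineages were at or near 0. Those above it included Pf4 of megakaryocytes (39.1 against 16.1 FPKM). Of 10 B cell markers 2 passed the filter, Cd79b and Blnk, the higher at 33.1 against 61.4 FPKM. Of 12 dendritic cell markers 3 passed it, Bst2, Batf3 and Itgax, the highest at 92.3 against 108 FPKM. No listed marker of mast cells and basophils (9 genes), eosinophils (6) or erythroid cells (10) passed the filter, Pax5 of B cells and Cd3e of T cells were listed at 0, and the summed level of 11 T and NK cell markers was 0.953 to 1.07 FPKM in Pim1-/- and 4.93 to 5.57 in WT libraries, where Cd4 (0.432 against 4.96 FPKM) made up most of it.

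Nuclear and non-polyadenylated RNAs differed between the genotypes. Neat1 had 20.8, 23.7 and 20.4 FPKM in the Pim1-/- libraries and 101, 78.8 and 127 in WT. Malat1 had a mean of 4.91 against 16.2 FPKM. Rn45s, the precursor of ribosomal RNA, was at 178, 75.2 and 51.7 FPKM in Pim1-/- and 549, 130 and 524 in WT libraries, so its groups overlapped. Of 8 such RNAs tested, in a list written after their values were seen, 6 were called lower, where 3.51% of all genes were. The summed level of the list was 97.8 to 236 FPKM in Pim1-/- and 262 to 740 in WT libraries, and its part in the results below was not tested.

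Pim1 itself, the targeted gene, lies on chromosome 17 at 29490785 to 29496111 (GRCm38.p6). It had 8.70, 8.00 and 9.51 FPKM in the Pim1-/- libraries and 24.96, 21.5 and 22.3 in WT. The groups did not overlap, and Pim1-/- cells kept 38.1% of the WT level, so the direction was that of the labels and transcript from the locus was still counted. The log2 fold change was -1.30 ± 0.06 (SE, n = 3 per genotype; limma, adjusted p = 2.95e-11). All fold changes here are on the log2(FPKM + 1) scale, which understates the change of low genes, and are Pim1-/- minus WT. Pim3 was lower at 3.90 ± 0.21 against 5.47 ± 0.31 FPKM (SD, n = 3; limma, adjusted p = 1.45e-05), under the 2-fold threshold. Pim2 was at 1.92 ± 0.05 in Pim1-/- and 1.70 ± 0.11 in WT cells, a difference that did not pass (log2 fold change 0.12, limma, adjusted p = 0.114).

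Of the 11 genes annotated within 200 kb of Pim1, 7 were tested and 1 was called. Fgd2, which encodes an exchange factor for the small GTPase Cdc42, ends 111.2 kb before Pim1 and had 5.18, 5.24 and 5.89 FPKM in Pim1-/- against 20.7, 19.2 and 21.0 in WT libraries. Its log2 fold change was -1.73, larger than that of Pim1. The other 6 neighbours lay between a log2 fold change of -0.24 (Tbc1d22b) and 0.37 (BC004004).

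With more than a 2-fold change, p under 0.05 and a Benjamini-Hochberg false discovery rate (FDR) under 0.1, limma called 466 genes higher in untreated Pim1-/- BMDMs, or 4.59% of the genes tested, and 357 lower, or 3.51%, together 823 or 8.1%. Past 4-fold, 161 genes were higher and 39 lower. Without a fold threshold, 3425 genes (33.7%) were higher and 4346 (42.8%) lower at an FDR under 0.05, and 8082 genes, 79.6%, had 3 values in 1 genotype that did not overlap those of the other, 35% with Pim1-/- higher and 44.6% with it lower. Differences within 2-fold were thus common, and the text turns on the calls past 2-fold. The median log2 fold change over all genes tested was -0.06. In all, 229 genes passed the filter only through the Pim1-/- libraries and 174 only through WT. In any list, the 229 had to be higher and the 174 lower in Pim1-/- cells, and 144 and 45 of them were called. Of the 466 genes called higher, 87 were in the lists of DNA replication and mitosis alone.

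**Figure D1:**
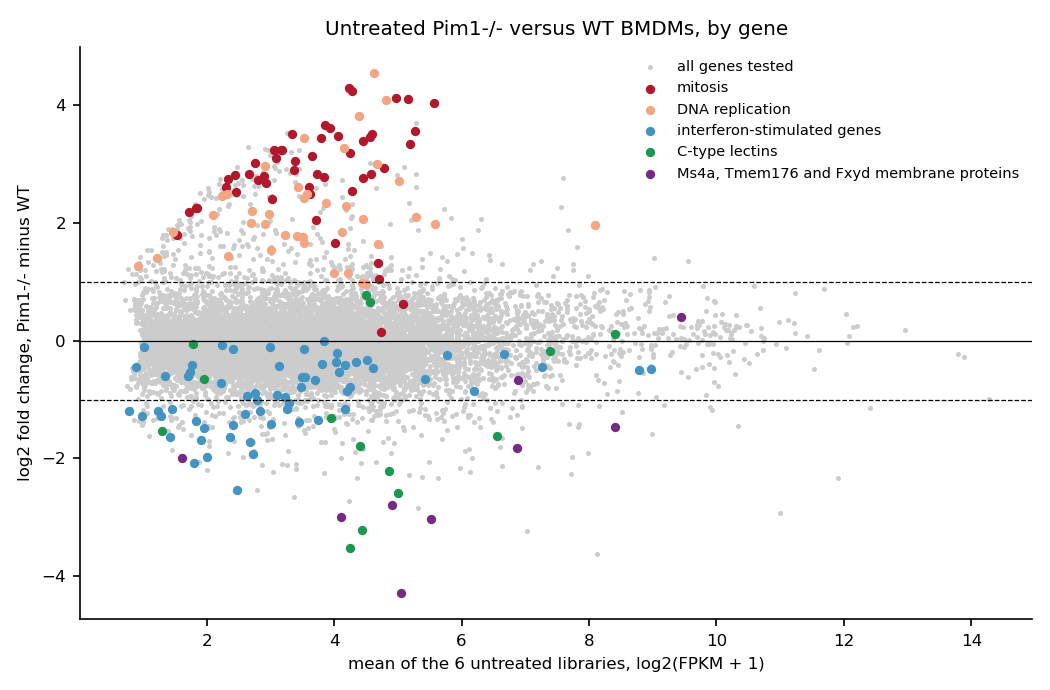
Log2 fold change between untreated Pim1-/- and WT BMDMs against the mean level of the 6 libraries in log2(FPKM + 1), 1 point per gene tested, with dashed lines at 2-fold. Genes of mitosis and DNA replication lie above the upper line with 4 exceptions, and C-type lectins, the Ms4a, Tmem176 and Fxyd proteins and interferon-stimulated genes lie mostly below 0.

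Genes of the cell division cycle were the group with the largest increases. Of the 10 largest, 8 are replication or mitosis genes by the lists, and Fam64a, a partner of CALM that is made in mitosis, is a further one known from dividing cells. 2810417H13Rik (Pclaf), the PCNA-associated factor that loads with PCNA at replication forks, had 49.3, 46.5 and 43.6 FPKM in Pim1-/- and 1.16, 0.835 and 1.11 in WT libraries. Its log2 fold change of 4.55 ± 0.07 (SE; limma, adjusted p = 4.98e-17) was the largest increase of all genes. Pbk, a mitotic kinase, was at 37.3, 33.9 and 33.2 FPKM in Pim1-/- and 0.820, 0.785 and 0.891 in WT libraries. The WT values of both genes lay near the 1 FPKM at which the filter was set, and no Pim1-/- value was under 33 FPKM.

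Among the other genes of DNA synthesis, Tk1 and Rrm2, which supply deoxynucleotides, had means of 52.2 and 38.2 FPKM in Pim1-/- against 2.12 and 1.79 in WT cells. Uhrf1, which guides DNA methylation onto new strands, had 20.1, 19.2 and 20.9 against 0.870, 0.988 and 0.931 FPKM. The replicative helicase was higher as a whole: Mcm2 to Mcm7 had log2 fold changes from 1.75 (Mcm4) to 3.27 (Mcm5). Pcna, the sliding clamp and the listed gene with the highest level, went from 113, 113 and 104 FPKM in WT to 471, 435 and 395 in Pim1-/- libraries, 3.95-fold by the means. Of 40 replication genes, all tested, 38 were called higher, where 4.59% of all genes were, none was called lower, and the median log2 fold change was 2.04. Gins4 and Dnmt1 missed the fold threshold at 0.95 and 0.98. Of the 40, 8 passed the filter only through the Pim1-/- libraries, so they had to be higher there.

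The mitosis list went further, with 49 of 51 genes called higher, none lower and a median of 2.84. Top2a, the topoisomerase that untangles sister chromatids, had 66.0, 68.6 and 66.1 FPKM in Pim1-/- and 3.06, 3.00 and 2.81 in WT libraries. Birc5 (survivin), of the chromosomal passenger complex, had a mean of 88.0 ± 1.9 against 4.41 ± 0.37 FPKM (SD, n = 3), and the spindle protein Nusap1 35.9 ± 2.1 against 0.962 ± 0.199. Ccna2, the cyclin of S and G2 phase, was at 59.5, 59.2 and 56.1 against 2.84, 2.43 and 2.02 FPKM. Mki67, the antigen Ki-67, was at 43.5 ± 2.3 against 2.90 ± 0.23 FPKM. Cenpa (log2 fold change 0.62) and Pttg1 (0.14) were the genes of the list that were not called. Here 17 genes passed the filter only through the Pim1-/- libraries, so they had to be higher there.

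**Figure D2:**
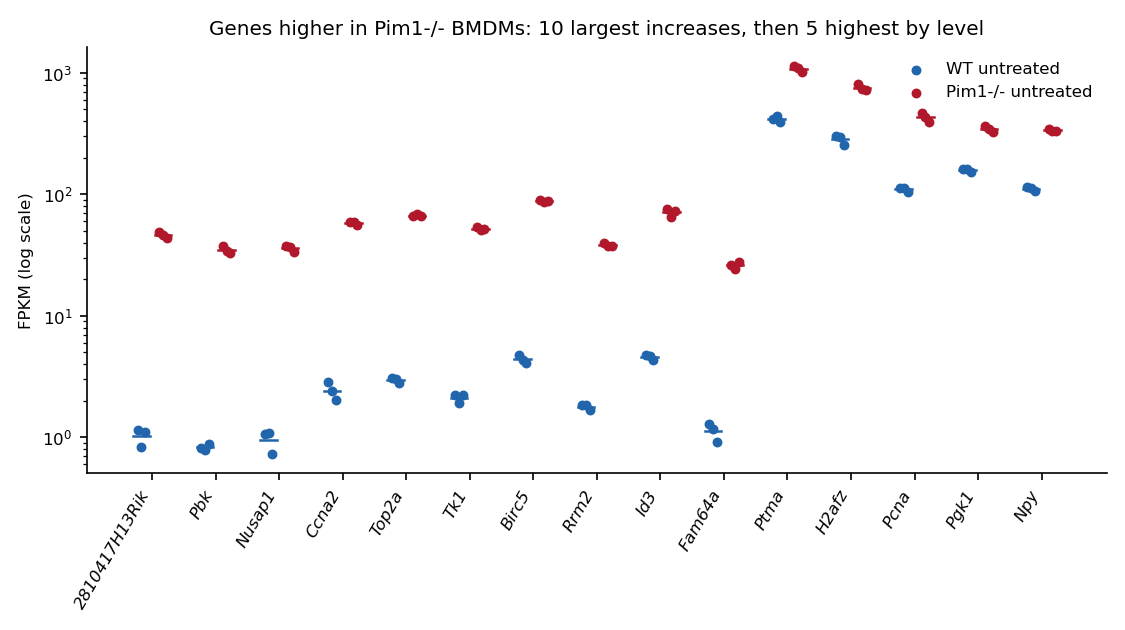
FPKM on a log axis in each of the 3 Pim1-/- (red) and 3 WT (blue) untreated libraries, with bars at the means, for the 10 largest increases and then the 5 called genes with the highest level. The genotypes do not overlap for any of the 15 genes, and WT values of the first 10 lie between 0.732 and 4.81 FPKM.

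The promoters of these genes carry letters known from cell cycle regulation, which are shown for the lists with the largest medians. The cell cycle homology region (CHR, TTTGAA) is bound by the DREAM and MuvB complexes with B-Myb and FoxM1, often beside a CCAAT box bound by NF-Y, and the E2F site (TTTGGCGC or TTTCGCGC) by E2F factors and their RB-family repressors. Windows of 300 bases, 250 before and 50 after each start, were taken from RefSeq (GRCm38.p6) and searched on both strands, and 8253 of the 10158 genes had 10503 windows. Among 44 windows of 42 mitosis genes, 77.3% held a CHR and 70.5% a CCAAT box, while 12.2% and 37.9% of the windows of all genes tested did. Among 40 windows of 33 replication genes, 30.0% held an E2F site, against 1.68% of those of all genes tested, 62.5% a CCAAT box and 12.5% a CHR. Over all 32851 windows of the genome the shares were 17.9% for CHR, 37.4% for CCAAT and 0.813% for E2F. Among the windows of genes tested, a CHR overlapped a CCAAT box in 13 and an ISRE (below) in 7, an E2F site overlapped a CCAAT box in 3 and an E-box in 1, and a CCAAT box overlapped an ISRE in 2 and a CArG box in 19. Lists that did not rise held these letters too: a CCAAT box was in 80.0% of 20 windows of cholesterol synthesis genes, and a CHR in 46.7% of 15 windows of C-type lectins, most of which fell. A match is a description of the sequence only. The choice of stretches left out part of the genome. Among the genes considered, the stretches below show the 3 mitosis genes with the largest change that hold both a CHR and a CCAAT box before the start. The 3 replication genes with the largest change that hold an E2F site there follow. Capitals mark the motifs, read 5′ to 3′ on the gene's strand.
Top2a, chr11:99024197-99024426, minus strand: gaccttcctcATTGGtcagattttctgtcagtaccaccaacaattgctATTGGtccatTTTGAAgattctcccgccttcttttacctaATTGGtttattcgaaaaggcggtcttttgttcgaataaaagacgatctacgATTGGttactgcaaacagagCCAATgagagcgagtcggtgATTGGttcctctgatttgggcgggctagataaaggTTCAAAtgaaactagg
Kif11, chr19:37376327-37376378, plus strand: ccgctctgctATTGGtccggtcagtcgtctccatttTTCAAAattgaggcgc
Mki67, chr7:135716462-135716577, minus strand: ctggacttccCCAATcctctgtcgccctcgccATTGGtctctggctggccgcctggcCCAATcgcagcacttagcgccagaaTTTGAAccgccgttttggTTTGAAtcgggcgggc
Uhrf1, chr17:56304118-56304145, plus strand: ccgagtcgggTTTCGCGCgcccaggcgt
Mcm5, chr8:75109346-75109377, plus strand: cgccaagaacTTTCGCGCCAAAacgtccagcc
Pola1, chrX:93632276-93632303, minus strand: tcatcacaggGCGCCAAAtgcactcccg
The CHR nearest to the start began 23 bases before it in Top2a and 19 bases before it in Kif11, the motor that separates spindle poles. In Mcm5 2 E2F sites on opposite strands overlap. In Top2a 6 CCAAT boxes, in either orientation, lay before the start. Kif11 had 26.4, 26.4 and 24.6 FPKM in Pim1-/- against 1.27, 1.17 and 0.949 in WT libraries. Pola1, the catalytic subunit of DNA polymerase alpha, had means of 9.73 and 1.33 FPKM.

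The transcriptional regulators known from these phases differed among themselves. Of 19 genes of the E2F, RB and DREAM list, 6 were called higher, where 4.59% of all genes were, and none lower. Of the 19, 2 passed the filter only through the Pim1-/- libraries, so they had to be higher there. The 6 were Foxm1 (log2 fold change 2.63), Mybl2 (B-Myb, 2.12) and E2f8 (2.01), which act in or after S phase, and Rbl1 (p107, 1.58), E2f7 (1.54) and E2f2 (1.15). The repressors Rb1 (-0.29) and Rbl2 (p130, -0.41), which hold resting cells out of the cycle, and E2f4 (-0.24) were lower at an FDR under 0.05 within 2-fold. Among 20 tested G1 regulators 9 were called higher, beside the same 4.59% of all genes. Here 3 of the 20 passed the filter only through the Pim1-/- libraries and had to be higher. Ccnd1, the D-type cyclin that M-CSF induces, had 44.4, 42.8 and 39.6 FPKM in Pim1-/- and 6.50, 6.05 and 5.89 in WT libraries. Cks1b and Cks2, subunits of CDK complexes, Ccne1, Ccne2, Ccnd2, Cdc25b and Myc (5.65 ± 0.19 against 2.01 ± 0.19 FPKM) were higher too, as was the CDK inhibitor Cdkn2d (1.23). Among the other CDK inhibitors, Cdkn1c (p57) fell by 0.92 and Cdkn1b (p27) fell by 0.43 on the log2 scale and Cdkn2c (p18) rose by 0.85, each past an FDR under 0.05 and within 2-fold. Cdkn1a (p21), a target of p53, was at 56.8 ± 3.0 against 50.3 ± 1.2 FPKM.

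Proteins that serve dividing cells were higher at high levels. Stmn1, which destabilises microtubules, had a mean of 336 against 48.8 FPKM, Tuba1b 311 against 63.4 and Tubb5 318 against 85.6. The chromatin proteins Hmgb2 (66.0 against 10.0) and Ptma (1076 against 419), the histone variant H2afz (754 against 285) and the nuclear lamin Lmnb1 (18.3 against 1.57) followed. In that list, written after the values were seen, 16 of the 18 genes were called higher, where 4.59% of all genes were. Tubulins and Ptma have near-identical copies, and how the authors' counting shared reads among them is not given, so their single values are uncertain. Of 23 DNA repair genes tested in a list also written afterwards, 16 were called higher, where 4.59% of all genes were. Of the 23, 16 passed the filter only through the Pim1-/- libraries, so they had to be higher there. The called p53 targets and BCL2 family genes were lower. Sesn1, a stress-induced inhibitor of mTORC1, was at 48.6 against 129 FPKM, and the pro-apoptotic BH3 proteins Bmf (2.89 against 11.4) and Bcl2l11 (Bim, 9.59 against 24.1) were lower. These were 2 of 18 p53 targets, with Btg2, and 2 of 14 BCL2 family genes, where 3.51% of all genes were called lower. At an FDR under 0.05, 6 BCL2 family genes were higher and 6 lower, with a median of 0.01. Of the p53 targets 4 were higher and 11 lower at that FDR, where 33.7% and 42.8% of all genes were.

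Biosynthetic and metabolic lists differed in direction, and serine synthesis held the largest increases among them. Phgdh, the first enzyme of serine synthesis, had 62.7, 58.9 and 57.6 FPKM in Pim1-/- and 7.19, 7.01 and 6.33 in WT libraries. Psat1 and Psph, the next 2 enzymes, had log2 fold changes of 2.44 and 1.35, the mitochondrial folate enzymes Mthfd2 and Shmt2 2.73 and 1.25, and asparagine synthetase Asns 2.32. Of 10 genes tested in that list, written after the values were seen, 8 were called higher, where 4.59% of all genes were, and none lower. Of the 10, 1 passed the filter only through the Pim1-/- libraries and had to be higher. In the list of the unfolded protein and ATF4 response, 7 of 23 were called higher, where 4.59% of all genes were. Of the 23, 2 passed the filter only through the Pim1-/- libraries and had to be higher. The 7 called were Phgdh, Psat1, Mthfd2, Shmt2 and Asns with the amino acid transporter Slc7a5 (1.91) and Trib3 (1.28). Herpud1, of degradation in the endoplasmic reticulum, was called lower at -1.08.

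Larger machineries moved within 2-fold. All but 2 of 31 proteasome subunits were higher at an FDR under 0.05, where 33.7% of all genes were, none was called past 2-fold, and the median was 0.46. Of 77 nuclear genes of oxidative phosphorylation, 65 were higher at that FDR, with a median of 0.50, and 5 passed 2-fold, among them Uqcrq of complex III (251 against 107 FPKM) and cytochrome c, Cycs (31.5 against 12.6). Of 25 nucleolar and ribosome biogenesis genes 21 were higher and 3 passed 2-fold (Nop58, Nop56 and Dkc1, of which Dkc1 at 1.05 lost its call, at 0.997, without replicate 2 of Pim1-/-). The 81 cytosolic ribosomal protein genes had a median of 0.18, with 52 higher and 10 lower. Pgk1, of glycolysis, had 344 ± 18 against 160 ± 5 FPKM (SD, n = 3), and the monocarboxylate transporter Slc16a1 was the other glycolysis gene called of 23. Txn1 (thioredoxin) and Gclm of glutathione synthesis were among 4 called of 24 NRF2 and antioxidant genes. Of the 24, 3 passed the filter only through the Pim1-/- libraries, so they had to be higher there. Over all genes 4.59% were called higher, so these are small counts. None of 24 cholesterol synthesis genes was called, and 17 of them were lower at an FDR under 0.05, where 42.8% of all genes were.

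Outside these pathways, inhibitors of differentiation stood out among transcription factors. Id3 had 75.7, 65.5 and 73.2 FPKM in Pim1-/- and 4.74, 4.65 and 4.36 in WT libraries, a log2 fold change of 3.70 ± 0.05, and Id1 12.4 ± 1.3 against 0.746 ± 0.181 FPKM. Both encode helix-loop-helix proteins that bind partners but not DNA and are induced by BMP signalling. Of 24 macrophage transcription factors these were the 2 called higher. Maf (40.0 against 105 FPKM) and Irf8 (35.1 against 84.0), which act in macrophage identity, were called lower, so calls were balanced, and 19 of the 24 were lower at an FDR under 0.05 (42.8% of all genes), among them Spi1 (PU.1) at 124 against 188. Npy, which encodes neuropeptide Y, was at 347, 330 and 331 against 114, 113 and 106 FPKM. Cd34, a surface protein of progenitors, was at 11.5 ± 0.2 against 0.844 ± 0.071 FPKM. It passed the filter only through the Pim1-/- libraries and had to be higher there. The other progenitor markers tested, Kit, Sox4 and Ly6a, were at or under 2.31 FPKM in each genotype and not called.

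The largest decreases were in membrane proteins of mature macrophages. Fxyd2, a modulator of the sodium pump, had 2.65, 1.76 and 2.32 FPKM in Pim1-/- and 63.5, 58.7 and 63.6 in WT libraries, 27.6-fold lower by the means. Its log2 fold change of -4.29 ± 0.09 (SE; limma, adjusted p = 7.22e-16) was the largest decrease of all genes. Tmem176a and Tmem176b, paired intracellular channel proteins, fell by 2.99 and 3.02 on the log2 scale, and Ms4a6b by 2.80. Of 9 genes of these families tested, 7 were called lower, where 3.51% of all genes were, and the median was -2.00. The list pools separate families and was chosen with earlier results of these data known, so its count and median are a description only. Fxyd5, another member, was higher within 2-fold at 797 against 600 FPKM.

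C-type lectins, receptors for sugars on microbes and dying cells, had 8 of 14 called lower (3.51% of all genes were), none higher and a median of -1.43, which was -0.36 with no filter on low values. Clec4a1 was at 2.03, 2.04 and 2.01 FPKM in Pim1-/- and 32.7, 34.6 and 34.7 in WT libraries. Clec10a, a galactose receptor, was at 3.18 ± 0.19 against 38.1 ± 2.2 FPKM. Clec4n (dectin-2) and Clec7a (dectin-1), which bind fungal sugars, were at 9.30 against 46.6 and 45.4 against 141 FPKM. Other members went another way. Clec4e (Mincle) and Clec5a were higher within 2-fold (0.78 and 0.65), and Clec4d, at 353 against 326 FPKM, did not pass (limma, adjusted p = 0.117). The Clec4a and Ms4a6 genes are close paralogs, so reads may have been shared among them.

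Fc receptors, the chains of C1q and scavenger receptors came next. Of 8 Fc receptor genes 5 were called lower, where 3.51% of all genes were, with a median of -1.20. They were led by Fcgrt, the neonatal Fc receptor (15.2, 15.4 and 15.8 against 82.8, 80.7 and 83.04 FPKM), and Fcrls. Fcer1g, the signalling chain of activating Fc receptors, was at 1740 ± 23 against 1687 ± 50 FPKM and did not pass (limma, adjusted p = 0.335). The 3 chains of C1q, which opens the classical complement pathway, fell together: C1qb was at 690, 666 and 719 against 1851, 1931 and 1877 FPKM, C1qa at 111 against 298 and C1qc at 603 against 1311. Of 14 scavenger and efferocytosis receptors 5 were called lower, among them Stab1 (-2.32), the mannose receptor Mrc1 (-1.46) and Mertk (-1.57), which binds dying cells. Msr1 (97.7 against 28.8 FPKM) and Cd36 (90.6 against 39.2), receptors for modified lipoprotein, were called higher. Over all genes 3.51% were called lower and 4.59% higher. Trem2, at 825 against 849 FPKM, did not pass (limma, adjusted p = 0.394).

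The receptor through which M-CSF sustains these cells was lower. Csf1r had 239, 246 and 279 FPKM in Pim1-/- and 754, 747 and 791 in WT libraries, 33.3% of the WT level by the means. Csf3r, the receptor of G-CSF, was at 3.00 against 16.2 FPKM, and 7 of 8 genes of that list were lower at an FDR under 0.05, where 42.8% of all genes were. Of the 16 macrophage markers 8 were called lower, where 3.51% of all genes were, and none higher, with a median of -1.05. Their summed level was 20611 to 21555 FPKM in Pim1-/- and 34901 to 37227 in WT libraries. Lyz2 made up most of that sum, at 13297 against 26302 FPKM. In bulk RNA, fewer cells of a kind and less RNA per cell cannot be told apart. Lgals3 (4846 against 3542 FPKM) was higher within 2-fold, and Cd14 (160 against 167) did not pass (limma, adjusted p = 0.216).

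MHC class II genes, which present peptides to CD4 T cells, had 6 of 15 called lower, where 3.51% of all genes were. Cd74, the invariant chain, had 52.6, 48.3 and 59.1 FPKM in Pim1-/- and 234, 223 and 258 in WT libraries. H2-Eb1, H2-Ab1, H2-Aa and H2-DMa were called with it, as was Ciita (0.260 against 1.94 FPKM), the coactivator on which their transcription depends. Among MHC class I genes 2 of 19 were called lower, Tapbp and H2-T24, a small count beside that 3.51%.

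**Figure D3:**
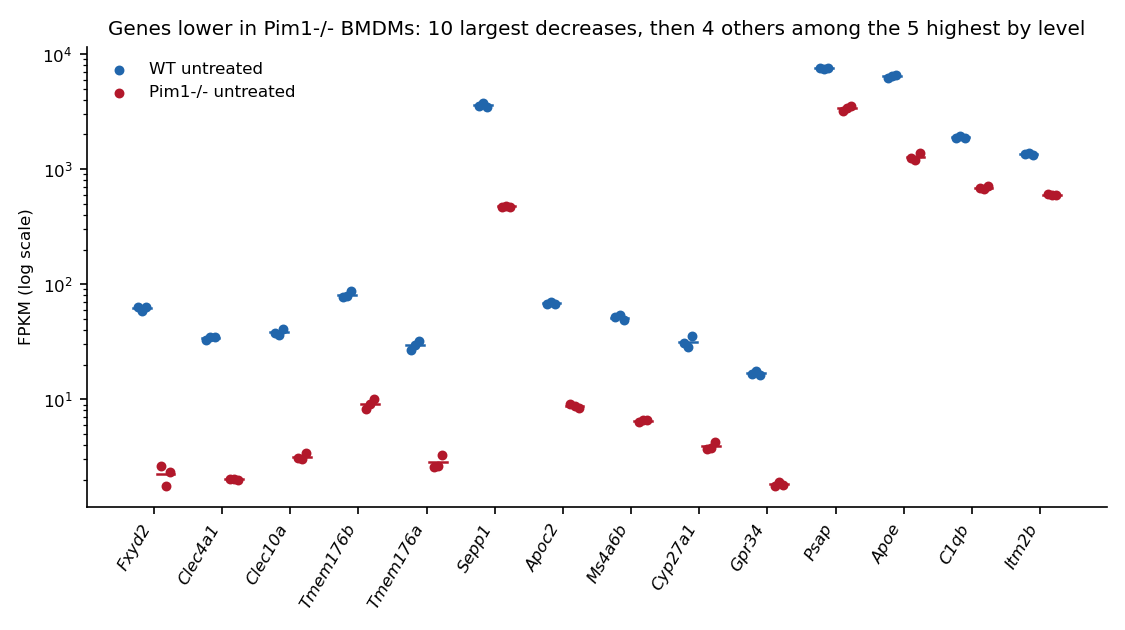
FPKM on a log axis in each of the 3 Pim1-/- (red) and 3 WT (blue) untreated libraries, with bars at the means, for the 10 largest decreases and then 4 more among the 5 called genes with the highest level. The genotypes do not overlap for any of the genes shown, and Psap, the most abundant, remains at 3201 to 3512 FPKM in Pim1-/- cells.

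Several genes of secreted and lipid-handling proteins were lower, with Apoe and Sepp1 among them at high levels. Apoe, the apolipoprotein that macrophages secrete with cholesterol, had 1255, 1194 and 1374 FPKM in Pim1-/- and 6152, 6486 and 6587 in WT libraries, 5.03-fold lower by the means. Apoc2, of the same gene cluster, was at 8.71 ± 0.39 against 68.6 ± 1.6 FPKM, Pltp, a phospholipid transfer protein, at 71.9 ± 5.7 against 348 ± 16, and Abca1, the cholesterol exporter, at 2.46 ± 0.21 against 13.8 ± 0.4. These were 4 of 19 genes of the LXR and lipid list called lower, where 3.51% of all genes were, and Cd36 (above) was the 1 called higher. Abcg1, another LXR target and exporter, was within 2-fold at -0.34, as was the receptor Nr1h3 (LXR alpha) at -0.47. Cyp27a1, which makes 27-hydroxycholesterol, was at 3.92 against 31.6 FPKM. Sepp1 (selenoprotein P) was at 468, 482 and 470 against 3558, 3770 and 3451 FPKM, 7.59-fold lower. Hpgd, which breaks down prostaglandins, was at 23.6 against 115 FPKM and led 5 of 16 prostaglandin and leukotriene genes called lower, beside the same 3.51%. Pla2g4a, which frees arachidonic acid, was called higher at 19.2 against 4.31. Lysosomal genes were called about as often as all genes (3.51% lower): of 44, Psap, the precursor of saposins, and Lgmn were the 2 called, at 45.0% and 46.9% of their WT level, and with quantile normalization neither passed 2-fold (-0.99 and -0.94).

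Txnip, a thioredoxin-binding alpha-arrestin that limits glucose uptake, had 81.2, 82.8 and 91.6 FPKM in Pim1-/- and 338, 335 and 338 in WT libraries. Its relatives Arrdc2, Arrdc3 and Arrdc4 were called lower with log2 fold changes of -1.29, -1.21 and -1.29. That list was written after the values were seen, and Arrdc1 in it was within 2-fold.

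Interferon-stimulated genes, which type I interferon switches on, were lower in Pim1-/- cells, with a summed level of 1395 to 1501 FPKM against 2113 to 2209 in WT libraries. Of 63 tested, 25 were called lower, where 3.51% of all genes were, none was called or passed an FDR under 0.05 as higher, 59 were lower at that FDR (42.8% of all genes), and the median was -0.79. Of the 63, 11 passed the filter only through the WT libraries, so they had to be lower in Pim1-/- cells. Ifit3 had 0.748, 0.428 and 0.729 FPKM in Pim1-/- and 7.80, 8.85 and 8.84 in WT libraries. Ifit1 had 0.525, 0.724 and 0.604 against 4.87, 5.86 and 5.43, and the chemokine Cxcl10 0.336, 0.329 and 0.349 against 4.35, 4.47 and 5.10. Irf7, the factor that amplifies the interferon response, was at 2.02 ± 0.51 against 8.83 ± 0.37 FPKM. Ifitm6, at 10.1 against 23.8, had a mean of 16.9 FPKM over the 6 libraries, the highest among the called genes of the list. Stat2 was called lower (-1.06), and 13 of 16 genes of the interferon receptor and JAK-STAT list were lower at an FDR under 0.05, where 42.8% of all genes were. Stat4, at 3.25 against 0.907 FPKM, was the 1 called higher. It passed the filter only through the Pim1-/- libraries, so it had to be higher there. Calls past 2-fold in that list were near the share of all genes.

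The interferon-stimulated response element (ISRE, here GAAA, any 2 bases and GAAA), which IRF factors bind, was held by 49.2% of 61 windows of 50 interferon-stimulated genes, by 3.24% of the windows of all genes tested and by 3.44% of all windows. Its overlaps with other motifs are counted above. The stretches of the 3 genes with the largest change that hold it before the start are shown, with the ISRE in capitals on the strand of the gene.
Ifit3, chr19:34583363-34583426, plus strand: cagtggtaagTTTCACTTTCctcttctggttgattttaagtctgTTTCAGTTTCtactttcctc
Cxcl10, chr5:92349083-92349112, minus strand: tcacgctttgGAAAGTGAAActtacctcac
Ifit1, chr19:34640775-34640823, plus strand: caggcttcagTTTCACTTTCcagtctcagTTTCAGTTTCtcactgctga
Ifit3 and Ifit1 each held 2 copies, and the single copy of Cxcl10 began 213 bases before the start. The E-box (CACGTG), which MYC and the MITF/TFE factors bind, was held by 9.33% of the windows of genes called higher, 8.06% of those called lower and 10.5% of those of all genes tested. The CArG box, bound by SRF, was held by 0.889%, 1.61% and 1.26% of them.

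Genes of innate immune sensing and signalling were counted next, against 3.51% of all genes called lower and 42.8% lower at an FDR under 0.05. Of 11 Toll-like receptor genes 4 were called lower: Tlr9 (1.91 against 12.6 FPKM), which senses DNA, Tlr2 (13.2 against 46.2) and Tlr1 (5.81 against 16.4), which pair to sense lipoproteins, and Unc93b1 (120 against 333), the chaperone of the endosomal receptors. Of 23 genes between TLR4 and IRF3, the pathway to interferon beta, the kinase Ikbke (9.06 against 25.4 FPKM) was called lower, a share near that of all genes, and 18 were lower at an FDR under 0.05 with a median of -0.35. Among 15 NF-kappaB genes, Bcl3 (-1.71), Nfkbiz (-1.22) and Relb (-1.16) were called lower. Of 18 immediate early genes 4 were called lower, Ier3, Egr1, Zfp36 and Btg2. Ccl2, the monocyte chemoattractant, was higher at 19.8 ± 1.3 against 4.89 ± 0.38 FPKM, as was Pf4, while Cxcl16 and Ccl5 were lower with Cxcl10. Ccr1 was called higher and Ccr2 lower. Of 8 inflammatory cytokine and enzyme genes that passed the filter, Vegfa was called lower (-1.04, and -0.98 without replicate 3 of WT), and 13 of the 21 listed did not pass it. Mmp12, macrophage elastase, was at 86.7 against 17.5 FPKM, and Timp2 at 38.7 against 89.6. No integrin of 12 was called, and of 40 genes of the actin cytoskeleton Tagln2 was called higher and none lower.

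**Figure D4:**
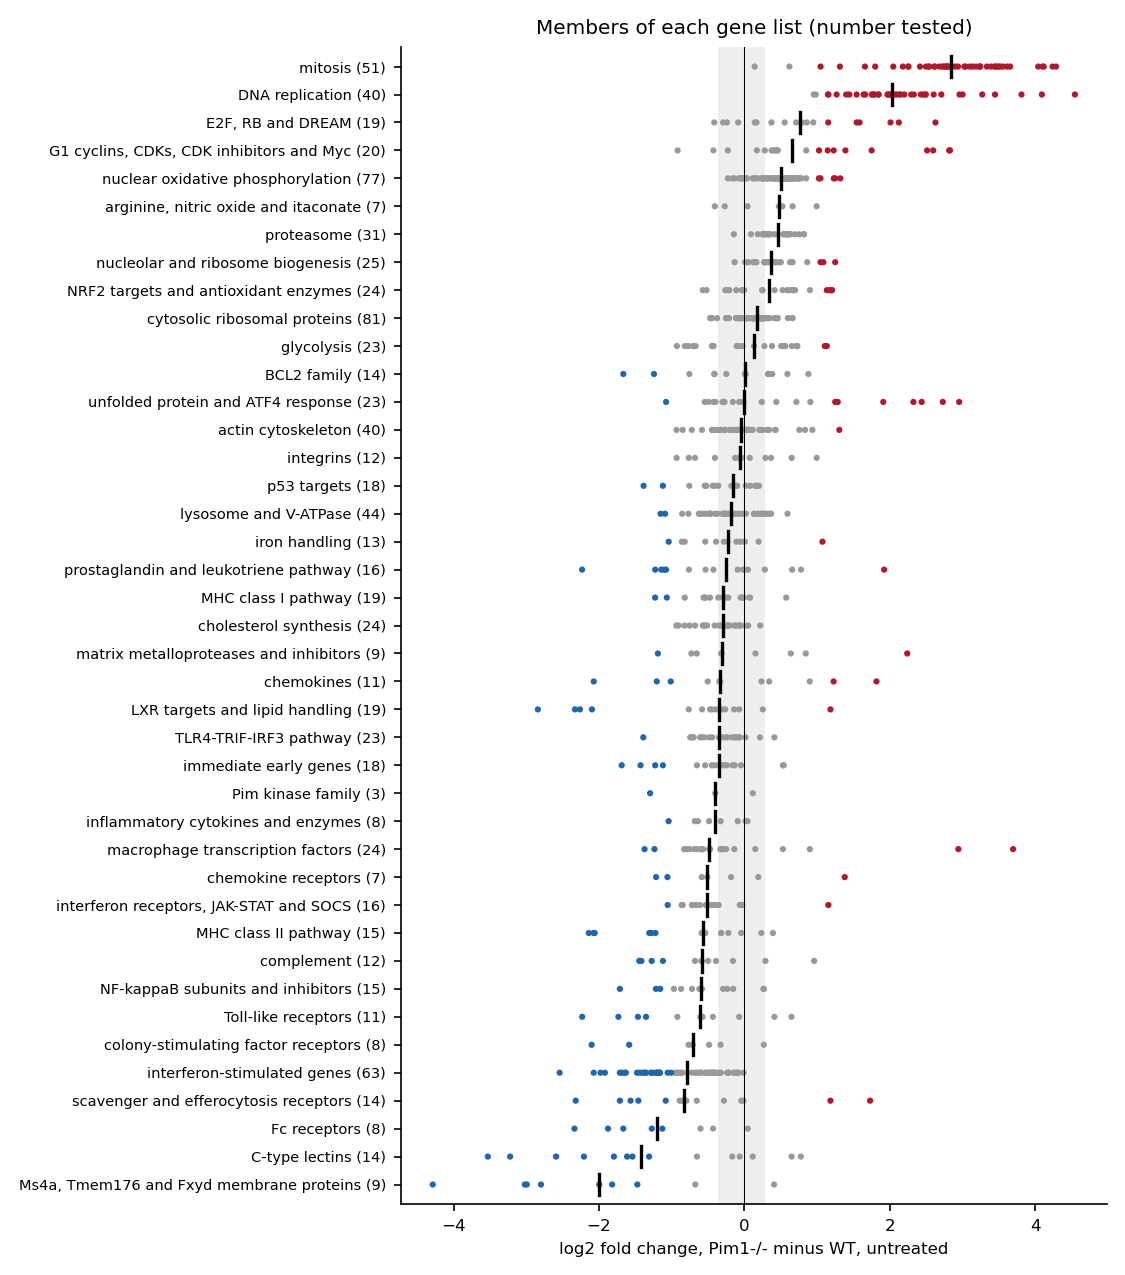
Log2 fold change of each tested member of the 41 pathway lists in untreated cells, 1 point per gene, red for genes called higher, blue for genes called lower and grey for the rest, with a black tick at the median. The grey band spans the middle of all genes tested, from the 25th to the 75th percentile, and the ticks of mitosis (2.84) and of the Ms4a, Tmem176 and Fxyd genes (-2.00) are the farthest from it. The lists were chosen with earlier results of these data known.

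After LPS the difference between genotypes was not the same for most of these genes. Among Pim1 and the 20 genes with the largest change in untreated cells, the log2 fold change after LPS differed from that in untreated cells in 19 (limma interaction contrast, adjusted p under 0.05), a threshold that 62.5% of all genes passed, and it was smaller in size after LPS in 16 of them. With quantile normalization the difference of Tmem176a, Tmem176b, Ms4a6b and Pim1 had the opposite sign. The 20 were chosen by their size in untreated cells, so a smaller size after LPS is no finding. With a pseudocount of 0.1 the differences of Fam64a (-0.058) and Pbk (-0.32) no longer passed, and that of Rrm2 (-0.96) passed within 2-fold. Id3 went from 3.70 to 0.41, and Gpr34, a lysophospholipid receptor, from -2.65 to -0.03 (limma interaction, adjusted p = 6.13e-14 and 3.67e-12). After LPS Gpr34 was at 0.226 FPKM in Pim1-/- and 0.253 in WT cells, under the filter, where this scale gives values near 0 for any ratio. Counts after LPS are of genes that passed the filter in untreated cells. Of all these genes 3.56% were called higher after LPS and 4.35% lower. Of the mitosis genes 42 of 51 were called higher, with a median of 1.98, and replication genes 30 of 40 with a median of 1.43. Of 63 interferon-stimulated genes 9 were called lower after LPS, with a median of -0.60, and Ifit3 was at -0.20 and Cxcl10 at -0.23. Another 9 listed genes of that kind, among them Mx2 and Cxcl9, were under the filter in untreated cells and are left out. Over all genes tested 608, or 5.99%, had a genotype difference that changed past 2-fold with LPS.

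**Figure D5:**
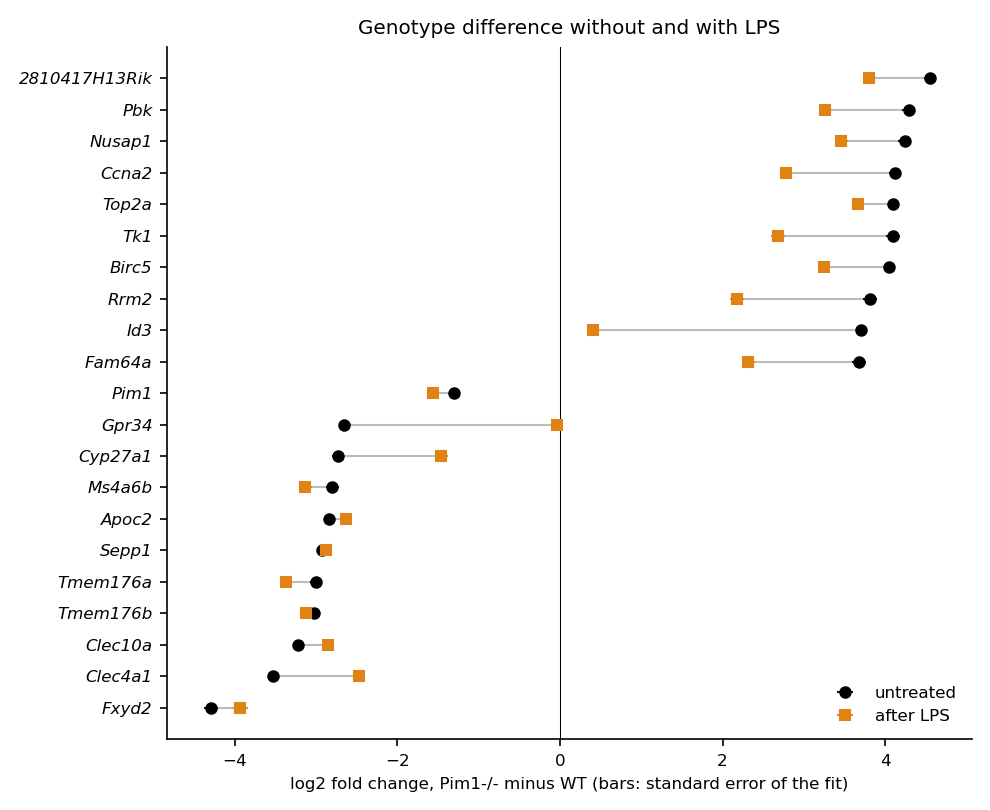
Log2 fold change between Pim1-/- and WT cells when untreated (black circles) and after LPS (orange squares), with standard errors of the fit, for Pim1 and the 20 genes with the largest change in untreated cells. Id3 and Gpr34 move to within 0.42 of 0 after LPS, while Fxyd2 stays below -3.9.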

How the data were processed

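RNA was sequenced from 12 libraries of BMDMs, 3 in each of 4 groups taken from the labels. The authors made stranded mRNA libraries, trimmed reads with cutadapt 1.18, mapped them with TopHat2 2.0.13 and computed expression with Cuffdiff 2.2.1. The submitters' processing notes name the build mm10 while the methods name rat rn5. Of the 23997 gene names, 22500 matched mouse RefSeq symbols (GRCm38.p6), 1359 a synonym and 138 neither. The deposited columns name no unit and were read as FPKM, which the authors' Cuffdiff gives. Annotation and library normalization: not given in the sources used here.

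Log2(FPKM + 1) was fitted with limma 3.58.1 (R 4.3.3) as 4 group means over 12 libraries with a mean-variance trend, keeping genes that reached 1 FPKM in 3 or more of the 6 untreated libraries. Calls needed more than 2-fold, p under 0.05 and FDR under 0.1. The fit was tested on simulated data. No set test was run, and lists are given by counts and medians. The members and the 41 pathway and 16 marker lists were chosen with earlier results of these data known, and 5 further lists after their values were seen. Named genes were the Pim kinases, the 10 largest increases and decreases with groups that do not overlap (leaving out pseudogenes, microRNA and small RNA genes), the 5 highest called genes in each direction, up to 3 called members and the highest called member of each list (the 2 highest where none was called), the highest marker of each cell type and the neighbours of Pim1. Other genes named were chosen after their values were seen.

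Libraries of the genotypes share replicate numbers. Deviations from the group means of same-numbered libraries correlated at 0.28, 0.37 and 0.46 over 4318 genes, each over 0.1. Those of unlike-numbered libraries correlated at -0.38 to 0.12, the highest also over 0.1. Deviations within a group are tied to each other, so the numbers may pair the libraries but these values do not establish it. The pattern was seen in the values alone, as the labels give the numbers no meaning. Main results come from the model with no replicate block. Alternatives were a pseudocount of 0.1, no filter on low values or one at 5 FPKM, scaling by median ratios or quantiles, only the 6 untreated libraries, the replicate block, no trend, a threshold on FDR alone and leaving out each library. Python 3.11.15 with numpy 2.4.6, pandas 2.3.3 and, for plots, matplotlib 3.10.9 was used for the rest. A few genes are not reported here.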

Additional observations from a re-analysis of the deposited data

Results flagged for a closer look

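The difference between genotypes after LPS was set against that in untreated cells for Pim1 and the 20 genes with the largest change in untreated cells, and 19 of the 21 differed between treatments (limma interaction contrast, adjusted p under 0.05), as did 62.5% of all genes tested. The genes were chosen by their size in untreated cells, so the direction of the change is a description. Values below are the log2 fold change after LPS minus that in untreated cells.

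Among the genes that were higher in Pim1-/- cells, Id3 had -3.28, Rrm2 -1.64, Tk1 -1.41, Fam64a -1.36, Ccna2 -1.34 and Pbk -1.03. The difference was -0.80 for Birc5, -0.78 for Nusap1, -0.75 for 2810417H13Rik and -0.43 for Top2a. With a pseudocount of 0.1 the values of Fam64a (-0.058) and Pbk (-0.32) no longer passed and that of Rrm2 (-0.96) passed within 2-fold. The WT means of all 3 after LPS were under 1 FPKM. Among those that were lower, Gpr34, under 1 FPKM in both genotypes after LPS, had 2.62, Cyp27a1 1.27 and Clec4a1 1.06, while Clec10a had 0.37, Fxyd2 0.36 and Apoc2 0.21. The difference grew after LPS for Tmem176a (-0.37), Ms4a6b (-0.33) and Pim1 (-0.26). The last 3 reversed under another scaling, and what sets these differences was not tested.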

How the results depend on the processing

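Without a fold threshold, an FDR under 0.05 gave 3425 genes higher and 4346 lower in place of 466 and 357, by its own construction. Other settings gave 355 (filter of 5 FPKM) to 593 (pseudocount 0.1) genes higher. Leaving out each library in turn gave 450 to 476 higher and 340 to 384 lower. With the replicate block 466 were higher and 358 lower, Pim1 was at -1.30, and it held all 466 and 357 calls made without the block and added 1. Pim1 ranged from -1.24 to -1.35 without 1 library. With a pseudocount of 0.1, 937 genes in place of 608 had a genotype difference that changed with LPS. Under quantile normalization the change with LPS reversed to 0.83 for Tmem176b, 0.49 for Tmem176a, 0.59 for Ms4a6b and 0.21 for Pim1, and the cause was not tested. Rnf8, at -0.02 and not called, ranged from -0.060 to 0.00987 without 1 library. Of 138 named genes, 138 kept their direction and side of the threshold under median-ratio scaling, no filter, no trend, only the untreated libraries and a pseudocount of 0.1, and 136 under quantile normalization. A filter of 5 FPKM left 123. Of 59 list medians, 30 moved by more than the spread between libraries with no filter, 26 with a pseudocount of 0.1 and 24 with quantile normalization, and with a filter of 5 FPKM 29 of 56 did. Lyz2 passed 2-fold (-1.01) without replicate 2 of Pim1-/- or replicate 3 of WT. Depth was estimated, not recorded, which limits what can be said of genes near 1 FPKM.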
